A study of Homo sapiens with 2 samples.

Results

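The integrated stress response core regulators are 10 genes, ATF4, DDIT3, ATF3, TRIB3, PPP1R15A, PPP1R15B, CEBPB, CEBPG, EIF2AK3 and EIF2AK4. They were taken by gene name, each from 1 line, out of 16005 genes. The cells were BE(2)-C, an established human neuroblastoma line with amplified MYCN, labelled WT, and their polyadenylated RNA was measured after 7 days in 1 of 2 media. The control group grew in EMEM/F12, a classical culture medium. The other group grew in HPLM, a medium whose metabolites and salts imitate human plasma. Both media carried 10% FBS and 1% P/S, so serum and antibiotics are shared by the groups. GEO has a single sample for each medium (1 per group). The table that the authors deposited gives 3 numbered libraries for each, with 17504237 to 21676080 reads per library summed over its 16051 lines. No label ties these libraries to separate cultures, so every p-value here measures the spread between libraries, which may be technical, and all values come from 1 cell line. EMEM/F12 library 3 differed from the other libraries of its medium: 403 genes lay at least 2-fold above the mean of libraries 1 and 2 and 82 at least 2-fold below, counting genes whose EMEM/F12 mean reached 10. No other library was counted in this way, so these numbers do not show how unusual it is. For genes where EMEM/F12 library 3 stood furthest apart, the changes given below are also given without it.

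As background, the integrated stress response starts when a kinase phosphorylates the alpha subunit of the translation initiation factor eIF2. EIF2AK3 encodes PERK, the kinase that senses stress in the endoplasmic reticulum, and EIF2AK4 encodes GCN2, which senses uncharged tRNA when amino acids run short. Bulk protein synthesis then slows, while mRNAs with short upstream reading frames, among them that of ATF4, are translated more. ATF4 is a basic leucine zipper (bZIP) transcription factor that pairs with C/EBP proteins at composite C/EBP-ATF sites and raises genes of amino acid supply and stress recovery. PPP1R15A and PPP1R15B encode the subunits that direct protein phosphatase 1 to eIF2 and so reverse the signal. The values below are mRNA levels. Phosphorylation and protein were not measured.

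The sequences just upstream of the start sites are shown first, since ATF4 and C/EBP sites are the elements through which the pathway is known to act. Whether a match bears on the change of its gene was not tested. RefSeq promoters (GRCh38.p14, 250 bases before to 50 bases after a start) matched all 10 genes, with 17 windows in all since 6 genes have more than 1 start. Both strands were searched for the C/EBP-ATF core TGATGNAA (TTNCATCA on the other strand), the cAMP response element TGACGTCA and the C/EBP palindrome TTGCGCAA. The C/EBP-ATF core stood in a window of 3 of the 10 genes, ATF3, PPP1R15B and CEBPG, and in a window of 4.46% of the 27305 genes in the promoter table. By windows that is 3 of 17, against 3.62% of all 35116 windows. The cAMP response element stood in the PPP1R15A window, which is 1 of 17, and in 1.85% of all windows. The C/EBP palindrome, found in 0.151% of all windows, matched none of the 17. No searched motif overlapped another in these genes. A match is a run of letters and not a shown binding site, and a window without one says nothing about sites farther away. The 4 matches are printed with up to 25 flanking bases in the direction of transcription, with the match in capitals.
ATF3 (chr1:212565191-212565248, plus strand, upstream of the gene): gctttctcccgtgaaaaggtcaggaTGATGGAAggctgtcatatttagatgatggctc
CEBPG (chr19:33374046-33374103, plus strand, before the second RefSeq start and outside GENCODE exons): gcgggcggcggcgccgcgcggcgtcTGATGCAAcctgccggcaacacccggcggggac
PPP1R15B (chr1:204412012-204412067, minus strand, upstream of the gene): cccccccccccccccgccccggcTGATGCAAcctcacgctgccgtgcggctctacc
PPP1R15A (chr19:48872338-48872395, plus strand, its last 4 bases inside the first GENCODE exon): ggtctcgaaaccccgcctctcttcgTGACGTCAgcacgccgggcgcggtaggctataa
The first base of the match lies 191 bases before the upstream RefSeq start of ATF3 and 42 before the second RefSeq start of CEBPG. It lies 227 bases before the start in PPP1R15B and 58 in PPP1R15A. The window of the downstream ATF3 start (chr1:212614768-212615067) held no match. Which start the cells use was not tested.

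In HPLM 8 of the 10 regulators were higher, 1 was lower and 1 did not pass, where a call is an adjusted p under 0.05 in the authors' deposited table (DESeq2, Benjamini-Hochberg over all lines). Of all 16004 genes with a p-value, 26.8% were called higher and 28.8% lower, so single calls are common in this comparison. By at least 2-fold 7 of the 10 were higher, against 5.39% of all genes. By at least 4-fold 5 of the 10 were higher. The lowest of these 5, ATF3, took place 184 from the top of the 16004 genes by log2 fold change. ATF3 and TRIB3 lay just above this cut, at 2.01 each. Both fell below it with spike-in scaling (1.95 each) and without HPLM library 1 (1.98 and 1.999). ATF3 also did without EMEM/F12 library 1 (1.94) or 2 (1.88), and when recentred on the median gene (1.9994). TRIB3 also did without EMEM/F12 library 3 (1.947) or HPLM library 3 (1.995). In 8 of the 10 all HPLM libraries lay above all EMEM/F12 libraries (33.6% of all genes), and in 1 all lay below (35.0% of all genes). The median log2 fold change in the authors' deposited table was 1.68 over the 10 genes and 0.01 over all genes tested. The genes that rose encode transcription factors, a pseudokinase and phosphatase subunits, and neither of the 2 kinase genes was called higher. Below, levels are normalised reads, that is read counts divided by 1 factor per library, and changes are log2 ratios of the mean over 3 libraries, HPLM over EMEM/F12, ± SE.

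**Figure D1:**
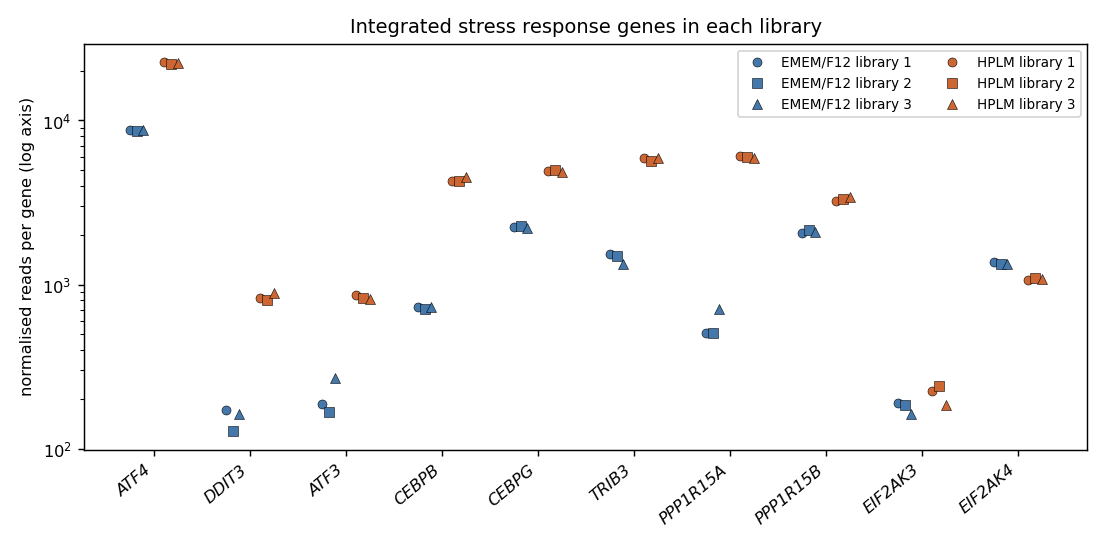
Normalised reads (log axis) of each of the 10 genes in the 3 EMEM/F12 libraries (blue) and the 3 HPLM libraries (orange), where marker shapes are library numbers. The media are separated for 9 genes, HPLM being lower for EIF2AK4, and they overlap for EIF2AK3.

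Of the 5 bZIP members ATF4 was by far the most abundant. ATF4 gave 8712, 8622 and 8762 normalised reads in EMEM/F12 libraries 1 to 3 and 22584, 21955 and 22501 in HPLM. The libraries of a medium lay close together and the media were far apart. Its log2 ratio was 1.36 ± 0.01, a 2.57-fold rise, with an adjusted p listed as 0 in the authors' deposited table. ATF4 (ENSG00000128272, chromosome 22, 39519695 to 39522685) has 4 annotated processed copies elsewhere in the genome, ATF4P1 to ATF4P4, so its reads carry some uncertainty of assignment.

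CEBPB encodes C/EBP-beta, a partner of ATF4 that is itself induced by stress. Its values were 729.7, 708 and 731 normalised reads in EMEM/F12 and 4296, 4257 and 4527 in HPLM. No library of one medium came near the other medium, and the log2 ratio of 2.59 ± 0.03 (6.03-fold) was the second largest of the 10 genes. Its adjusted p was listed as 0 in the authors' deposited table. CEBPB (ENSG00000172216, chromosome 20, 50190734 to 50192689) shares 231 exon bases with the antisense gene CEBPB-AS1, which rose from a mean of 51.2 to 127.7 normalised reads. The kit does not mark strand, so reads in the shared bases cannot be told apart, but the antisense gene was low beside CEBPB.

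CEBPG encodes C/EBP-gamma, a short family member that lacks a strong activation domain of its own and pairs with ATF4. It gave 2228, 2264 and 2216 normalised reads in EMEM/F12 and 4946, 5006 and 4854 in HPLM. The spread within a medium was small beside the difference. The log2 ratio was 1.14 ± 0.02 (2.21-fold), with an adjusted p of 4.63e-136 in the authors' deposited table. CEBPG (ENSG00000153879, chromosome 19, 33373330 to 33382686) is 1 of the genes with the TGATGCAA match printed above. For levels per kilobase, exon length counts every base in any annotated exon of a gene, which can exceed the length of 1 transcript. CEBPB was 42.2% ± 0.710 (SD, n = 3 libraries) of the summed CEBPB and CEBPG level per kilobase of exon in EMEM/F12. In HPLM it was 66.6% ± 1.07. On this measure the more abundant of the pair changed from CEBPG to CEBPB.

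DDIT3 encodes CHOP, a C/EBP-family protein that promotes cell death genes in prolonged stress. DDIT3 was low in EMEM/F12, at 173, 128 and 163 normalised reads, and reached 832, 804 and 890.5 in HPLM. The lowest HPLM library stood well above the highest EMEM/F12 library. Its log2 ratio was 2.45 ± 0.14 (5.45-fold), with an adjusted p of 1.10e-99 in the authors' deposited table. DDIT3 (ENSG00000175197, chromosome 12, 57516588 to 57521737) shares 355 of its 1307 exon bases with MARS, the methionyl-tRNA synthetase gene on the other strand, and 58 with MBD6. MARS rose from a mean of 10581 to 17315 normalised reads (log2 fold change 0.71 in the authors' deposited table) and MBD6 from 1746 to 2324. The part of MARS and MBD6 reads in the DDIT3 value was not tested. MIR616, which lies within DDIT3, had means of 9.04 and 17.3 normalised reads and did not pass. AC022506.1, which overlaps DDIT3 on the same strand, was not analysed here.

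ATF3 encodes a bZIP repressor and activator that is induced early in many stresses and acts downstream of ATF4. Its values were 187, 166 and 271 normalised reads in EMEM/F12 and 868.5, 825.5 and 820.7 in HPLM. EMEM/F12 library 3 stood above libraries 1 and 2 but far below every HPLM library. The log2 ratio was 2.01 ± 0.22 (4.03-fold) with all libraries and 2.25 without EMEM/F12 library 3. The adjusted p was 1.60e-56 in the authors' deposited table. ATF3 (ENSG00000162772, chromosome 1, 212565334 to 212620777) had the widest relative spread of the 10 genes in EMEM/F12, 26.6% of its mean.

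TRIB3 encodes a pseudokinase that is raised by ATF4 and CHOP and, in feedback, restrains ATF4. It gave 1532, 1489 and 1330.5 normalised reads in EMEM/F12 and 5904, 5664 and 5940.1 in HPLM. EMEM/F12 library 3 was the lowest library here, in contrast to its place for ATF3. The log2 ratio was 2.01 ± 0.06 (4.02-fold), with an adjusted p of 2.27e-287 in the authors' deposited table. TRIB3 lies on chromosome 20, 362835 to 397559 (ENSG00000101255). The related Tribbles genes moved less, and in both directions. TRIB2 rose (0.46 ± 0.03, adjusted p = 9.40e-29 in the authors' deposited table) and TRIB1 fell (-0.52 ± 0.05, adjusted p = 2.30e-05 in the same table).

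**Figure D2:**
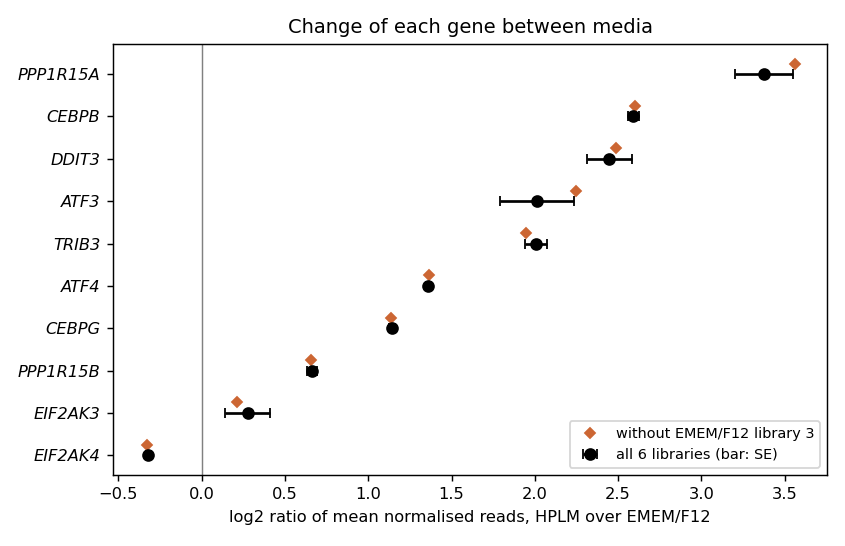
Log2 ratio of mean normalised reads, HPLM over EMEM/F12, for each gene with all 6 libraries (black, bars are SE) and without EMEM/F12 library 3 (orange diamonds). PPP1R15A is highest at 3.38 and EIF2AK4 lowest at -0.32, and leaving out the library moves ATF3 and PPP1R15A most.

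The eIF2 phosphatase subunits differed most among genes that share a role. PPP1R15A encodes GADD34, the inducible subunit. It gave 509, 504 and 715 normalised reads in EMEM/F12 and 6060.5, 5949.9 and 5947 in HPLM. The HPLM libraries were almost equal, and EMEM/F12 library 3 was the highest of its medium. The log2 ratio was 3.38 ± 0.17 (10.4-fold) with all libraries and 3.56 without EMEM/F12 library 3, and the adjusted p was 5.02e-84 in the authors' deposited table. Out of 11055 genes whose mean reached 100 normalised reads, PPP1R15A took place 7 from the top by the log2 fold change in the authors' deposited table, CEBPB place 21 and DDIT3 place 27. PPP1R15A (ENSG00000087074, chromosome 19, 48872392 to 48876057) carries the TGACGTCA match printed above.

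PPP1R15B encodes CReP, the subunit made without stress. Its values were 2067.5, 2151 and 2098 normalised reads in EMEM/F12 and 3218, 3337 and 3438 in HPLM. The media did not overlap, but the distance was much smaller than for PPP1R15A, with a log2 ratio of 0.66 ± 0.03 (1.58-fold) and an adjusted p of 1.36e-37 in the authors' deposited table. Per kilobase of exon, PPP1R15A made up 29.4%, 28.4% and 36.5% of the summed level of both genes in EMEM/F12 libraries 1 to 3, and 76.1%, 75.1% and 74.5% in HPLM. On this measure PPP1R15B was the more abundant of the pair in every EMEM/F12 library and PPP1R15A in every HPLM library. PPP1R15B lies on chromosome 1, 204403387 to 204411791 (ENSG00000158615), and shares no exon base with AL606489.1, the antisense gene that overlaps it.

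**Figure D3:**
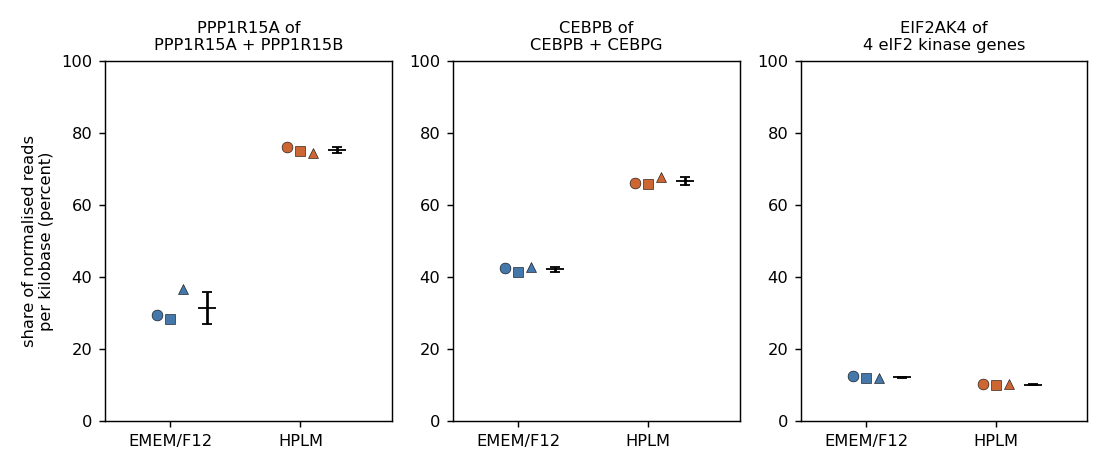
Share of normalised reads per kilobase of exon (percent) taken by PPP1R15A, CEBPB and EIF2AK4 within their groups, per library (shapes are library numbers) with mean and SD of the 3 libraries. PPP1R15A goes from 31.4% to 75.2% and CEBPB from 42.2% to 66.6%, while EIF2AK4 goes from 12.1% to 10.1%.

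The 2 kinase genes had the smallest log2 ratios of the 10 in size. EIF2AK3 (ENSG00000172071, chromosome 2, 88556741 to 88627576) gave 189.6, 185 and 162 normalised reads in EMEM/F12 and 225, 241 and 183 in HPLM. HPLM library 3 fell inside the EMEM/F12 range, and it is the only gene of the 10 whose media overlapped. Its log2 ratio was 0.28 ± 0.13, with an adjusted p of 0.114 in the authors' deposited table, and the 95% interval of the log2 fold change from DESeq2 run here was -0.02 to 0.58. The call depended on the method. The edgeR quasi-likelihood test with Benjamini-Hochberg adjustment gave 0.31 with an adjusted p of 0.0346, and DESeq2 without HPLM library 3 gave 0.38 with an adjusted p of 0.0462. Other settings did not pass. DESeq2 gave 0.21 without EMEM/F12 library 3 (adjusted p = 0.237) and 0.19 without HPLM library 2 (adjusted p = 0.413). With limma the change was 0.27 (adjusted p = 0.0625). The low read number and the antisense genes AC104134.1 (781 shared exon bases, not analysed here) and AC062029.1 (means of 18.2 and 22.1 normalised reads) further limit this value.

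EIF2AK4 (ENSG00000128829, chromosome 15, 39934146 to 40035591), which holds the pseudogene H3F3AP1 outside its exons, gave 1382, 1342 and 1334 normalised reads in EMEM/F12 and 1074, 1091 and 1087 in HPLM. It is the only member with every HPLM library below every EMEM/F12 library. The log2 ratio was -0.32 ± 0.02, which is 1.25-fold lower, with an adjusted p of 1.48e-06 in the authors' deposited table. The other eIF2 kinase genes did not pass in the authors' deposited table. EIF2AK1, which encodes the heme-regulated kinase, had a log2 ratio of -0.04 ± 0.02 (adjusted p = 0.484 in that table). EIF2AK2, which encodes the kinase activated by double-stranded RNA, had -0.08 ± 0.05 (adjusted p = 0.367 in that table). Per kilobase EIF2AK1 made up 75.2% of the summed level of the 4 kinase genes in EMEM/F12 and 76.4% in HPLM. EIF2AK4 made up 12.1% ± 0.253 (SD, n = 3 libraries) and 10.1% ± 0.110. These shares depend on the annotated exon lengths (11957 bases for EIF2AK4) and may differ from shares of transcripts.

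The order of the 10 genes per kilobase of exon, which also depends on the annotated exon lengths, changed between media. In EMEM/F12 it ran ATF4 (3460.1 ± 28.2 normalised reads per kilobase, SD, n = 3 libraries), CEBPG (507 ± 5.66), TRIB3 (422 ± 30.9), PPP1R15B (403 ± 8.13), CEBPB (369.6 ± 6.67), PPP1R15A (186 ± 38.8), DDIT3 (118 ± 18.2), EIF2AK4 (113 ± 2.16), ATF3 (51.4 ± 13.7) and EIF2AK3 (32.9 ± 2.74). The libraries of TRIB3 and PPP1R15B overlapped, as did those of DDIT3 and EIF2AK4, and the other neighbours did not. In HPLM the order was ATF4 (8889 ± 136), CEBPB (2229 ± 74.4), PPP1R15A (1935 ± 20.9), TRIB3 (1699 ± 43.7), CEBPG (1119 ± 17.3), DDIT3 (645 ± 33.6), PPP1R15B (637 ± 21.0), ATF3 (207 ± 6.51), EIF2AK4 (90.6 ± 0.744) and EIF2AK3 (39.8 ± 5.50). Only DDIT3 and PPP1R15B overlapped as neighbours there. ATF4 was first and EIF2AK3 last in both media, and CEBPB and PPP1R15A each moved up by 3 places. Among all genes with an exon length, ATF4 stood at percentile 99.1 in EMEM/F12 and 99.7 in HPLM, PPP1R15A at 71.9 and 98.1, and DDIT3 at 61.6 and 92.1.

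**Figure D4:**
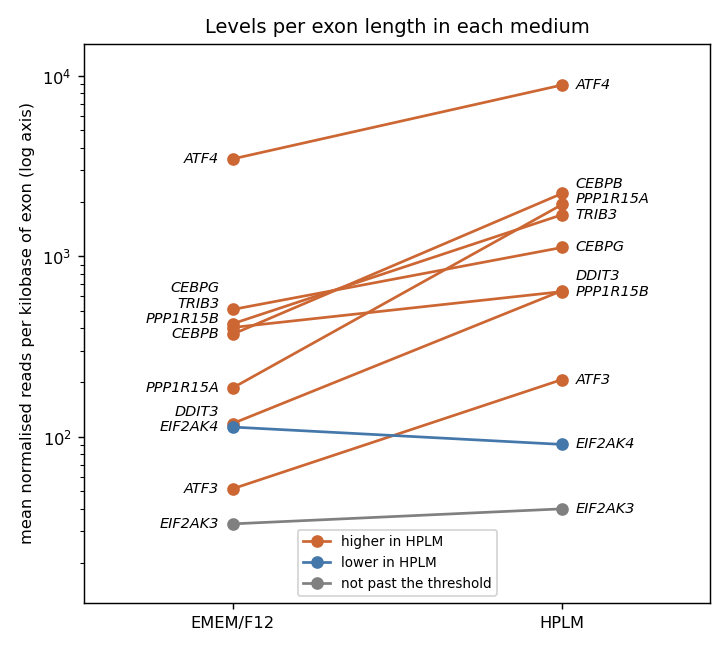
Mean normalised reads per kilobase of exon (log axis) of the 10 genes in each medium, with lines joining a gene and colours giving its call in the authors' deposited table. ATF4 is first in both media, PPP1R15A rises from 186 to 1935, and DDIT3 and PPP1R15B meet at 645 and 637.

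For the 10 regulators the distance of EMEM/F12 library 3 from libraries 1 and 2 was 0.61 (ATF3), 0.49 (PPP1R15A) and 0.11 (DDIT3) on the log2 scale, and the other 7 lay between -0.21 (EIF2AK3) and 0.02. Without it 8 regulators were called higher and 1 lower, as with it, each gene with the same call. Over all 16005 genes, leaving out EMEM/F12 library 3 gave 4697 higher and 4868 lower. Of the adrenergic neuroblastoma markers all 10 were present, 3 higher and 7 lower in HPLM, with summed levels of 190465 to 224465 normalised reads in EMEM/F12 and 171444 to 178848 in HPLM. All 7 fibroblast markers were present, 0 higher (1 at an unadjusted p under 0.05 in the DESeq2 test, 0 by edgeR) and 2 lower, with sums of 36634 to 85565 in EMEM/F12 and 66091 to 73778 in HPLM. Without EMEM/F12 library 3, 5 of these 7 were higher in DESeq2 run here (COL1A1, COL1A2, COL3A1, DCN and FAP, log2 fold changes 1.06 to 1.60). The highest EMEM/F12 sum was that of library 3, where COL1A1 reached 53749.7 against 21276 and 22731 in libraries 1 and 2. Of 6 blood cell markers CD14 alone was in the table, and 4 of 5 epithelial markers were, 3 of them higher, with sums of 226 to 269.6 in EMEM/F12 and 421 to 489.6 in HPLM. The part of these markers in the results was not tested. In bulk RNA, fewer cells with a transcript and less of it per cell cannot be told apart.

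The next questions are which other parts of the pathway moved, from lists chosen with earlier results of these data known, and how their counts read against the 26.8% and 28.8% of all genes. Upstream, the regulators of the kinases were mixed. Of 9 genes for the other eIF2 kinases and kinase regulators 4 were higher, 1 was lower and 4 did not pass, with a median log2 fold change of -0.04 in the authors' deposited table. NCK1, an adaptor that binds PERK, rose (0.81 ± 0.08), as did DNAJC3, an inhibitor of PERK (0.38 ± 0.04), DELE1, which relays mitochondrial stress to the heme-regulated kinase (0.41 ± 0.07), and IMPACT, an inhibitor of GCN2 (0.33 ± 0.08). GCN1, the activator of GCN2, fell (-0.16 ± 0.05). DNAJC3 and IMPACT lie outside the rule for named genes and were chosen after their values were seen.

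The translation machinery that the kinases act on did not move in 1 direction. Of 11 genes of eIF2, its exchange factor eIF2B and the catalytic subunits of phosphatase 1, 4 were higher and 4 lower, with a median of -0.03 in the authors' deposited table. The number higher was 2 without EMEM/F12 library 2, at an adjusted p under 0.01 and with spike-in scaling, and 3 without any 1 of the other libraries. EIF2S2, the eIF2 beta subunit gene, rose (0.33 ± 0.05) and EIF2B1 rose (0.25 ± 0.03). PPP1CC, a catalytic subunit gene, fell (-0.50 ± 0.03) and EIF2B3 fell (-0.49 ± 0.04). EIF2S1, whose product the kinases phosphorylate, had a log2 ratio of 0.04 ± 0.02 and did not pass (adjusted p = 0.482 in the authors' deposited table). EIF2S1 too was chosen after its value was seen.

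Other bZIP genes that can pair with the regulators were higher in 11 of 20 cases and lower in none, and 9 did not pass, with a median of 0.56 in the authors' deposited table (DESeq2). The number lower was also 0 at an unadjusted p under 0.05 and by edgeR. Without EMEM/F12 library 3 the number higher was 13, since CEBPD and FOSL1 then passed. NFIL3, a bZIP repressor gene, rose from 78.3, 87.2 and 132 normalised reads to 504, 475 and 468 (2.28 ± 0.24, and 2.54 without EMEM/F12 library 3). JDP2, a repressor of AP-1 and ATF sites, rose from 205, 208 and 242 to 645, 640.5 and 573 (1.51 ± 0.09). ATF5, a factor translated under the same upstream reading frame control as ATF4, rose from 7772, 7706 and 7318 to 19555, 19340 and 19961 (1.37 ± 0.03), beside 1.36 ± 0.01 for ATF4. CEBPA (-0.34 ± 0.17) and CEBPD (0.45 ± 0.40), the paralogs of CEBPB, were low in both media, with means between 70.9 and 115, and did not pass. Without EMEM/F12 library 3 the log2 fold change of CEBPD from DESeq2 run here was 0.86 (adjusted p = 0.000614).

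Of 9 genes for control of the ATF4 protein and Tribbles paralogs 4 were higher and 3 lower, with a median of 0.14 in the authors' deposited table. EP300, which encodes a coactivator that stabilises ATF4, rose (0.72 ± 0.05). BTRC, which encodes the ubiquitin ligase subunit that recognises ATF4, rose too (0.49 ± 0.05). EGLN1, a prolyl hydroxylase gene, fell (-0.22 ± 0.02).

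Target genes of ATF4 and CHOP were higher in 25 of 30 cases and lower in 2, with a median of 0.76 in the authors' deposited table. CHAC1, a glutathione-degrading enzyme gene, rose most (418, 461 and 567 to 4108, 3884 and 3980 normalised reads). Its log2 ratio was 3.05 ± 0.13, and 3.18 without EMEM/F12 library 3. SLC7A11, the cystine transporter gene, followed (2.95 ± 0.14, and 3.09 without that library). ERO1A, an oxidase gene of the endoplasmic reticulum, fell (-0.39 ± 0.03), as did PYCR1, a proline synthesis gene (-0.33 ± 0.05).

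Of 17 genes listed for the ATF6 and IRE1 arms of the unfolded protein response, which run beside PERK, 11 were higher and 4 lower. Their median was 0.78 in the authors' deposited table. ERN1, which encodes the stress sensor IRE1, rose from 223, 203 and 192 normalised reads to 1275, 1265 and 1254 (2.62 ± 0.06), beside 0.28 ± 0.13 for EIF2AK3, the gene of the PERK sensor. HERPUD1, a gene of protein disposal at the endoplasmic reticulum, rose (2.03 ± 0.05). MANF (-0.39 ± 0.06) and CRELD2 (-0.28 ± 0.04), genes of secreted stress proteins, fell. The other genes called lower were PDIA4 (-0.24 ± 0.01) and SDF2L1 (-0.23 ± 0.04), and CALR and HSP90B1 did not pass. Also called higher were HSPA5 (0.37 ± 0.02), SYVN1 (0.76 ± 0.04), ATF6 (0.78 ± 0.03), ATF6B (0.87 ± 0.05) and HYOU1 (1.01 ± 0.03). So were XBP1 (1.06 ± 0.02), EDEM1 (1.42 ± 0.10), SEL1L (1.73 ± 0.06) and DNAJB9 (1.77 ± 0.08). Apart from ERN1, HERPUD1, MANF and CRELD2, the genes of this list lie outside the rule for named genes and were added after their values were seen.

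**Figure D5:**
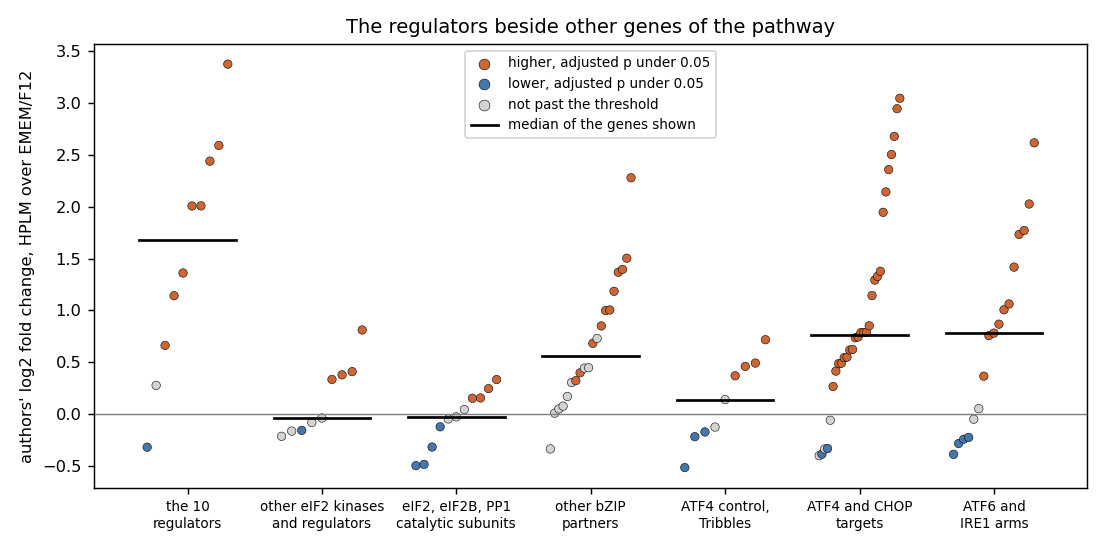
Log2 fold change in the authors' deposited table (HPLM over EMEM/F12) of the 10 regulators and of the genes in 6 pathway lists, 1 point per gene coloured by its call, with the median of each set as a line. Medians are 1.68 for the regulators, 0.56 to 0.78 for bZIP partners, ATF4 and CHOP targets and the ATF6 and IRE1 arms, and -0.04 to 0.14 for the other lists.

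Genes with the profile most like a regulator were found by the root mean square difference in log2(normalised value + 1) over the 6 libraries, each gene centred on its EMEM/F12 mean. Closest to ATF4 were IDH1 (0.028), PNPLA8 (0.029) and PCSK1 (0.030). Closest to DDIT3 were MAT2A (0.120), PTPRH (0.125) and a gene given only as ENSG00000231196 (0.138). Closest to PPP1R15A were SLITRK6 (0.130), KLHDC7B (0.158) and AL365361.1 (0.179). With 2 media this measure mostly matches the size of the change between them.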

How the data were processed

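The members and gene lists were chosen with earlier results of these data known. Trimmomatic 0.36, STAR 2.5.2b, Subread 1.5.2, DESeq2 and the build GRCh38 appear in the submitters' processing notes, whose roles and order are unknown. Libraries were made with a TruSeq RNA kit, per the labels' protocols, of a version that does not mark strand. For the annotation release, strand setting and filters, the sources used here say nothing. The deposited library columns hold a signal, read counts divided by 1 factor per library, from which whole reads were recovered for 100% of values within 0.01 reads. The deposited log2 values and p-values are the authors' own comparison, per the file headers. Of 16051 lines, 46 are external RNA spike-ins. The authors' DESeq2 test at an adjusted p under 0.05 was the main test, because GEO lists 1 sample per medium. A count of 0 allows up to 3 reads, or 2.68 to 3.49 normalised reads, counting error only.

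Means, SDs and log2 ratios of means with propagated SE were computed with Python 3.11.15, numpy 2.4.6 and pandas 2.3.3, figures with matplotlib 3.10.9. For the 10 genes these ratios lay within 0.0054 of the deposited log2 fold changes. DESeq2 1.42.0, edgeR 4.0.16 and limma 3.58.1 (pseudocount 1) were run in R 4.3.3 as alternatives, after tests on simulated data. DESeq2 run here called 8908 lines, all of them among the 8908 called by the authors. Coordinates, exon lengths and overlaps come from GENCODE 29 (GRCh38), matched for 15955 genes. Named genes are the 10 members, listed paralogs, overlapping genes, up to 2 called genes that rose most and 2 that fell most per list at a mean of at least 100 normalised reads, and the 3 most similar genes for ATF4, DDIT3 and PPP1R15A.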

Additional observations from a re-analysis of the deposited data

How the results depend on the processing

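Over 17 alternatives (adjusted p under 0.01 or 0.1, a minimum log2 change of 1, a mean of at least 100, recentring, spike-in scaling, DESeq2 run here, edgeR with and without a filter or with a replicate block, limma, and each library left out), 7 to 9 regulators were higher, and 1 was lower except under the log2 minimum of 1 (0). Among all genes the number higher ran from 863 of 16004 (log2 minimum of 1) to 5260 of 16005 (edgeR without a filter). The number lower ran from 1077 of 16004 (log2 minimum of 1) to 5227 of 16005 (limma). ATF4, DDIT3, ATF3, TRIB3, PPP1R15A, CEBPB and CEBPG kept direction and call in all 17, and PPP1R15B and EIF2AK4 in all but that log2 minimum. Some of the 17 could hardly change a call. An adjusted p under 0.1 cannot lose one, recentring kept the authors' adjusted p, and DESeq2 run here called the same 8908 lines. Log2 fold changes ranged over 3.29 to 3.56 for PPP1R15A, 1.88 to 2.24 for ATF3 and -0.38 to -0.29 for EIF2AK4. EIF2AK3 was called by edgeR with a filter (0.31), without one (0.31) and with a replicate block (0.30), and without HPLM library 3 (0.38), and not under the other 13 (highest adjusted p 0.413). Between same-numbered libraries of the 2 media, deviations from the medium mean correlated at -0.08, -0.14 and -0.24 for numbers 1 to 3. Libraries of different number were not compared, so these values cannot settle whether the numbers pair the libraries.

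Under the log2 minimum of 1, the genes higher and lower were 0 and 0 for other kinases and regulators, 0 and 0 for eIF2, eIF2B and phosphatase 1, 6 and 0 for bZIP partners, 0 and 0 for ATF4 control, 11 and 0 for ATF4 and CHOP targets, and 7 and 0 for the ATF6 and IRE1 arms. Over all 16004 genes that minimum left 863 higher (5.39%) and 1077 lower. With so small a share of all genes, a count of 0 in a short list is not read as a result. Lower genes among other kinases and regulators came to 2 at an adjusted p under 0.1, with spike-in scaling, limma and the 3 edgeR fits. Higher genes of eIF2, eIF2B and phosphatase 1 came to 2 at an adjusted p under 0.01 and with spike-in scaling, and to 2 to 3 with 1 library left out (2 without EMEM/F12 library 2). Spike-in scaling moved the median gene by less than 0.1 (to -0.05). EIF2AK3 and, in EMEM/F12, DDIT3 and ATF3 rest on the fewest reads.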

Other observations

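Several bZIP and stress genes of low level stood high in EMEM/F12 library 3, as ATF3 and PPP1R15A did. FOSL1, a subunit gene of AP-1, gave 83.5, 115 and 349 normalised reads in EMEM/F12 libraries 1 to 3 and 299, 342 and 267 in HPLM, so that library 3 alone reached the HPLM range. Without that library the log2 fold change of FOSL1 from DESeq2 was 1.62 (adjusted p = 5.25e-21). CEBPD gave 54.6, 72.1 and 125 in EMEM/F12 and 139, 92.0 and 114 in HPLM. COL3A1, a collagen gene, gave 1148, 1280 and 4273 in EMEM/F12 and 3640.3, 3856 and 3533 in HPLM. In the other direction FOSB, another AP-1 gene, gave 43.3, 48.8 and 20.7 in EMEM/F12. These genes were chosen after their values were seen.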
